A study of Homo sapiens with 6 samples.

Results

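The genes described here carry a newly made secretory protein from the ribosome into the endoplasmic reticulum (ER) and on to the Golgi. They are 55 named genes: the signal recognition particle (SRP) and its receptor, the SEC61 translocon with the translocon-associated protein (TRAP) complex, signal peptidase, the COPII and COPI vesicle coats, and the cargo receptors and tethers that work with those coats. They were listed by name, with earlier results of these data known, and are grouped by their known step. Of the 55, 52 had a probe set (a group of array probes read as 1 value) that the array annotation pairs with that symbol alone, and all 52 passed the filter on dim values, out of 12939 genes tested. SEC61G, a small translocon subunit, KDELR2, a KDEL receptor, and USO1, a vesicle tether, had none and were not analysed here.

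RNA came from MM1.S, an established human multiple myeloma cell line, and was measured on 6 Affymetrix arrays of 1 colour. The control group was 3 arrays of cells infected with the lentivirus labelled pKLO GFP control, and the knockdown group 3 arrays of cells infected with pKLO beta-catenin shRNA, a short hairpin RNA against the Wnt pathway protein encoded by CTNNB1. Cells of both groups had therefore been through infection and sorting for GFP. The sorted cells were grown in triplicate; the sources used here do not say whether the 3 came from separate infections, so p-values measure only the spread between these cultures, and the design is 1 cell line. Nor do they say how many hairpins were used.

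A protein bound for secretion starts with a signal peptide. SRP binds it as it leaves the ribosome and docks at the SRP receptor on the ER membrane, the chain passes through the SEC61 channel, and signal peptidase cuts the signal peptide off. Folded cargo leaves the ER in vesicles coated with COPII, whose assembly starts with the small GTPase SAR1, and vesicles coated with COPI, recruited by ARF GTPases, carry escaped ER proteins and receptors back from the Golgi. Plasma cells, the normal counterpart of myeloma cells, secrete antibody in large amounts, and their ER and secretory machinery are built up under the transcription factor XBP1, which with ATF6 binds short elements such as the unfolded protein response element (UPRE) in target promoters.

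The promoters of the listed genes were read for such elements. The count over the members uses no array values but depends on the list, which was chosen with earlier results of these data known. Whether the element had a part in the changes was not tested. RefSeq promoters of assembly GRCh38.p14, 250 bases before and 50 bases from the start site on, were found for 48 of the 55 members, with 66 promoters in all since a gene can have several. The core of the UPRE, TGACGTGG, stood on either strand in a promoter of 12 of these 48 members (25%). Among all 27305 genes with such a promoter (35116 promoters) it stood in 253 (0.927%), and among the 10386 tested genes with one in 127 (1.22%). It was in 9 of the 27 members called higher (33.3%), in 3 of the 14 not called (21.4%) and in 0 of the 6 called lower. Over all tested genes with such a promoter it was in 53 of 2626 called higher (2.02%) and in 18 of 2395 called lower (0.752%). With 6 members called lower, the count of 0 cannot show a difference by direction. The windows below are shown because they hold that element in members of 4 different steps; capitals mark the element, written as CCACGTCA where it lies on the other strand, and the last one belongs to a member that was not called.
SEC62, chr3:169966765-169966822, plus strand: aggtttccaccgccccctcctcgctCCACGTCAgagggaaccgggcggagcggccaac
SSR4, chrX:153794514-153794571, plus strand: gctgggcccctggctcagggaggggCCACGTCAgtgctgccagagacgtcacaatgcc
SSR3, chr3:156554134-156554191, minus strand: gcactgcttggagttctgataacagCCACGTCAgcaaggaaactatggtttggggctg
SEC23A, chr14:39103211-39103264, minus strand: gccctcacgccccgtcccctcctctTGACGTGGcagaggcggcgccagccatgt
COPA, chr1:160343226-160343270, minus strand: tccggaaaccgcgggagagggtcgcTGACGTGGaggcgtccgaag
COPB1, chr11:14499827-14499884, minus strand: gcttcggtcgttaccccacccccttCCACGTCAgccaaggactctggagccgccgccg
KDELR3, chr22:38468025-38468082, plus strand: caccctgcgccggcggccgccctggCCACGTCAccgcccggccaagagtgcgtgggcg
COPB2, chr3:139389811-139389868, minus strand: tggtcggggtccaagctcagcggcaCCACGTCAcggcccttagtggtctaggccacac

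The other members with the element were SRP19 and ARF1, called higher, and SEC24A and SEC16A, not called. In SEC62 it began 17 bases before the start site, in SSR3 41 before, in COPB1 48 before and in SSR4 129 before, while in SEC23A it spanned the start site and in COPA it began at base 6 after it. A full ER stress response element (ERSE), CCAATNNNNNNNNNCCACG, was in 0 of the 48, against 0.0916% of all genes. ERSE-II, which is ATTGG, 1 free base and CCACG, was in 0 of 48 (0.0696% of all genes), the cAMP response element TGACGTCA in 0 of 48 (2.25%) and the CEBP-ATF element TGATGCAA in 0 of 48 (1.08%). All were searched on both strands, and CCACG, the last part of both ERSE forms, overlaps the reverse of the UPRE core. A match is a string of letters in a window and not a measured binding site, and no binding was measured.

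The targeted gene was lower in the knockdown arrays on its brightest probe set, from 7.75 ± 0.08 to 6.42 ± 0.10 (mean ± SD of the log2 value, n = 3 each; limma adjusted p = 2.27e-07 over all probe sets). Levels are the deposited log2 values and folds are on that scale, which has a floor at 4. Of the other probe sets for CTNNB1, a dimmer one was called higher, with a rise of 0.33 (limma adjusted p = 0.0390 over all probe sets). Another changed by -0.07 and was not called. The probe sets of the targeted gene were thus called in both directions. The change in expression was broad: with limma and Benjamini-Hochberg adjustment over all genes tested, 47.3% of the 12939 genes passed the threshold of 0.05, with 25.3% higher and 22.0% lower in the knockdown, and the 3 values of each group did not overlap for 54.4%. Values correlated at 0.980 to 0.990 within the groups and at 0.945 to 0.953 between them. Probe sets for ribosomal RNA, a measure that can reflect RNA preparation, were at 9.02 ± 0.54 in the control and 9.92 ± 0.26 in the knockdown arrays; their part in the results below was not tested. All 9 plasma cell markers listed were above the filter in these cells, and their summed level ran from 13.23 to 13.26 in control and from 13.20 to 13.27 in knockdown arrays. The sum was taken on the linear scale, so it mainly reflects the brightest markers and says little about the others. JCHAIN and XBP1, the brightest with means of 11.98 and 10.81, were not called. Within that list 3 rose, SLAMF7 by 0.80, PRDM1 by 0.51 and CD38 by 0.39, and 3 fell, TNFRSF17 by 0.32, IRF4 by 0.23 and SDC1 by 0.20; their part in the results below was not tested. Of 33 markers of other cell types, 29 had a probe set and 15 were tested; 2 were called higher, CSF1R by 0.31 and HBB by 0.24, and 0 lower. In whole cultures, fewer cells of a type and less RNA per cell cannot be told apart.

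Most of these genes were expressed more strongly in the knockdown cells. Of the 52, 32 rose (61.5%), 6 fell (11.5%) and 14 did not pass the threshold, beside 25.3% and 22.0% of all genes. The median change was 0.32 on the log2 scale, against 0.05 over all genes tested, and single changes ran from -0.51 for SAR1B to 1.68 for ARF1. Of the called members, 2 changed by 2-fold or more, ARF1 and ARF4, beside 6.12% of all genes tested. For ARF1 this rests on 1 probe set, and the 3 that it shares with another symbol rose by 0.48, 0.53 and 0.56. The groups did not overlap for 40 of the 52, with 33 higher and 7 lower. Over all 12939 genes tested they did not overlap for 54.4%, with 3872 genes higher and 3172 lower. The members were bright, with a median level of 8.91 against 6.66 for all genes tested; among the 1044 genes at or above that level, 37.7% were called higher and 41.0% lower, with a median change of -0.01. When limma asked instead for a change beyond 1.2-fold, 17 members were called higher and 1 lower.

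**Figure D1:**
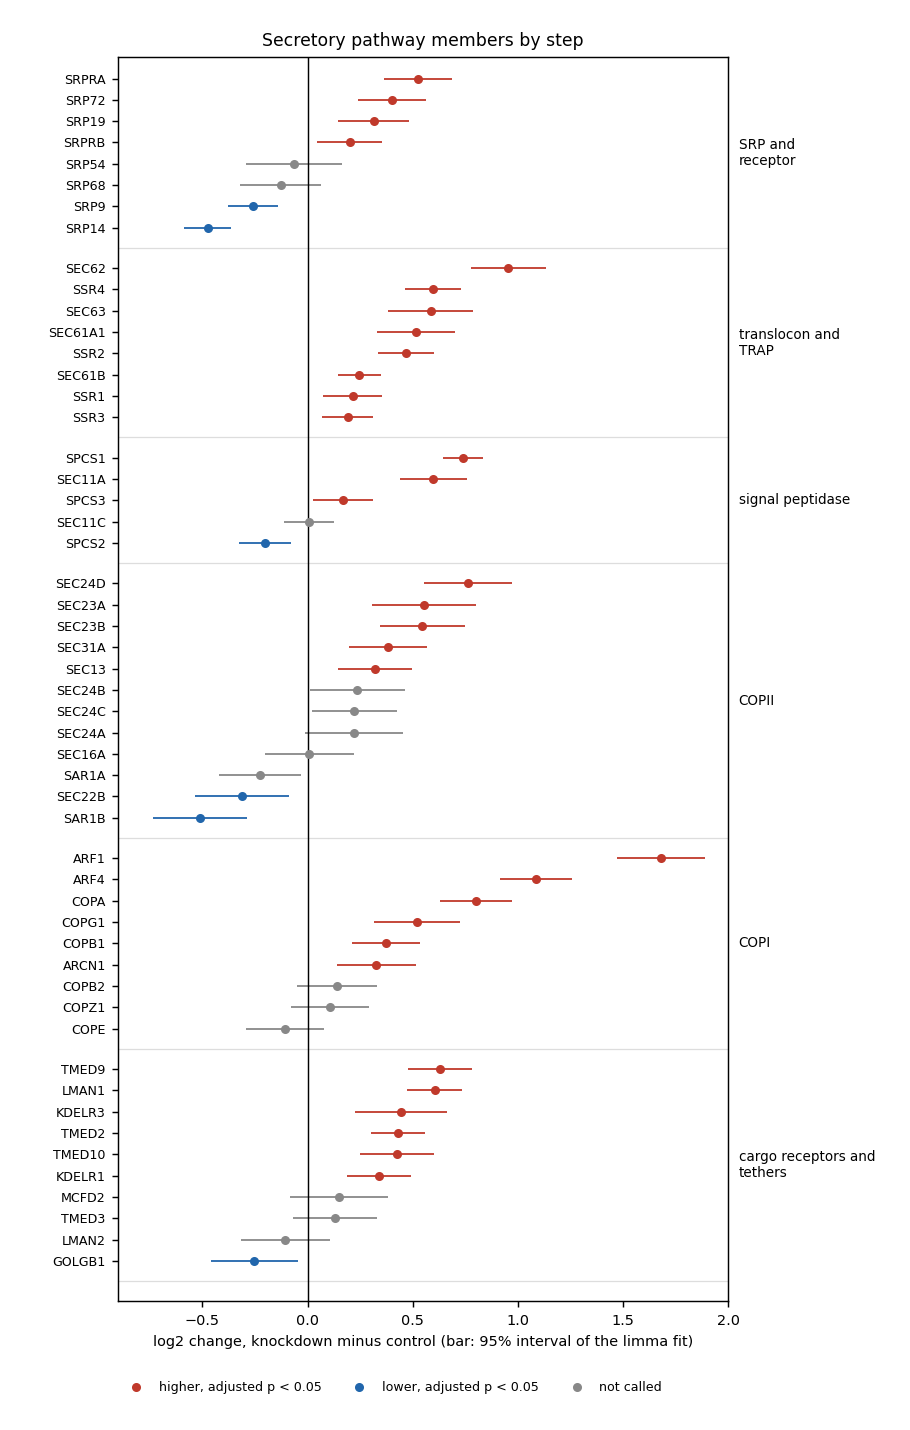
Change of each of the 52 members (x axis: knockdown minus control, log2; bar: 95% interval of the limma fit), grouped by step and coloured by call. All 8 members of the translocon and TRAP step lie right of 0, while the SRP step (-0.48 to 0.53) and the COPII step (-0.51 to 0.76) hold members on both sides; ARF1, in the COPI step, lies farthest right at 1.68.

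The SRP and its receptor held genes called in both directions. Of 8 genes 4 rose (50%), 2 fell (25%) and 2 did not pass the threshold, with a median change of 0.07. Over all genes tested 25.3% were called higher and 22.0% lower, and these shares also stand beside the counts of the steps below. The 2 that fell, SRP9 and SRP14, encode the pair of proteins that bind the Alu end of the SRP RNA and slow the ribosome. SRP14 was at 11.17, 11.13 and 11.06 in the control arrays and at 10.61, 10.69 and 10.63 in the knockdown arrays. Every knockdown array was lower than every control array, and SRP14 fell by 0.48 (SE 0.05; limma adjusted p = 1.99e-08), to 71.9% of the control level. SRP9 was at 10.81, 10.86 and 10.92 in the control and at 10.65, 10.62 and 10.54 in the knockdown arrays. These groups did not overlap either, and SRP9 fell by 0.26 (SE 0.06; limma adjusted p = 3.97e-04). Each of the pair was read by 1 probe set.

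Of the other 4 SRP subunits 2 rose and 2 did not pass. SRP72, which with SRP68 forms the largest protein pair of the particle, was at 8.99, 9.06 and 8.98 in the control and at 9.38, 9.49 and 9.37 in the knockdown arrays. Its groups did not overlap, and it rose by 0.40 (SE 0.08; limma adjusted p = 8.51e-05). SRP19, which helps SRP54 onto the RNA, rose by 0.31 (limma adjusted p = 0.00219). SRP54, the GTPase that holds the signal peptide, changed by -0.06 with an interval of -0.29 to 0.16, and SRP68 by -0.13 with an interval of -0.32 to 0.07; their groups overlapped.

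Both genes of the membrane receptor passed. SRPRA was called higher on each of its probe sets, while of the 3 for SRPRB 1 was called higher and 1 lower. SRPRA, the receptor subunit that meets SRP54, was at 8.75, 8.69 and 8.75 in the control and at 9.28, 9.28 and 9.21 in the knockdown arrays, without overlap. It rose by 0.53 (SE 0.08; limma adjusted p = 2.53e-06), and its second probe set changed by 0.58. SRPRB, the subunit that anchors SRPRA in the membrane, was at 9.28, 9.26 and 9.18 in the control and at 9.44, 9.47 and 9.41 in the knockdown arrays. It rose by 0.20 on this probe set (SE 0.08; limma adjusted p = 0.0294), while its second brightest fell by 0.45. That fall passed in the fit over all probe sets (limma adjusted p = 0.00138). The higher call of SRPRB was lost without control array 3 (limma adjusted p = 0.125) or without knockdown array 1 (0.108), 2 (0.102) or 3 (0.0552).

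In the channel step all 8 measured translocon and TRAP genes rose, with a median change of 0.49, beside 25.3% of all genes called higher. SEC62, which together with SEC63 assists proteins that enter the channel after synthesis, was at 9.15, 8.74 and 8.94 in the control and at 9.84, 10.01 and 9.84 in the knockdown arrays. The lowest knockdown array was well above the highest control array, and SEC62 rose by 0.95 (SE 0.09; limma adjusted p = 2.43e-10), a 1.94-fold change. The other SEC62 probe sets above the filter changed by 0.62, 0.52 and 0.23, and the mean over all its probe sets by 0.49. SEC63, the membrane partner that recruits the chaperone BiP to the channel, was at 7.93, 7.75 and 7.92 in the control and at 8.47, 8.60 and 8.28 in the knockdown arrays. Its groups did not overlap and it rose by 0.59 (SE 0.10; limma adjusted p = 1.3e-05). SEC61A1, the pore, rose by 0.52 (limma adjusted p = 2.2e-05). SEC61B, a small subunit at the side of the pore, rose by 0.25 (limma adjusted p = 1.38e-04). A dimmer SEC61B probe set rose by 1.52, but its control mean of 5.19 was below the filter. It passed only through its knockdown mean of 6.71. The mean of both SEC61B probe sets rose by 0.88, mainly through this dim one.

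The 4 TRAP subunits, which sit beside the channel and help some signal peptides engage it, rose by a median of 0.34. SSR4 was at 10.09, 9.98 and 9.90 in the control and at 10.54, 10.59 and 10.63 in the knockdown arrays. It rose by 0.60 without overlap (SE 0.06; limma adjusted p = 6.57e-09). SSR2 was at 10.45, 10.31 and 10.19 in the control and at 10.74, 10.84 and 10.77 in the knockdown arrays. It rose by 0.47, again without overlap (SE 0.06; limma adjusted p = 5.55e-07). SSR1 was at 9.72, 9.67 and 9.71 in the control and at 9.93, 9.97 and 9.85 in the knockdown arrays, which did not overlap. It rose by 0.21 (SE 0.07; limma adjusted p = 0.0113), a call lost without knockdown array 1 (0.0642) or 2 (0.0662). SSR3 rose by 0.19 (limma adjusted p = 0.0091; 0.0649 without knockdown array 3). For SSR1 the 6 probe sets above the filter ranged from -0.30 to 0.97 and were called in both directions; for SSR3 the 4 ranged from 0.11 to 0.94. Both calls were also lost with values centred on the array medians (limma adjusted p = 0.0775 for SSR1 and 0.114 for SSR3) and without the intensity trend (0.0694 and 0.106), which left 6 of the 8 genes called.

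In signal peptidase 3 of 5 genes rose, 1 fell and 1 did not pass. SPCS1, a noncatalytic subunit, was at 11.19, 11.19 and 11.13 in the control and at 11.95, 11.92 and 11.87 in the knockdown arrays. The groups were tight and far apart, and SPCS1 rose by 0.74 (SE 0.05; limma adjusted p = 4.81e-14), a 1.67-fold change. SEC11A, one of the 2 alternative catalytic subunits, was at 9.44, 9.19 and 9.28 in the control and at 9.85, 10.01 and 9.84 in the knockdown arrays. Its groups did not overlap and it rose by 0.60 (SE 0.08; limma adjusted p = 2.08e-07). SEC11C, the other catalytic subunit, changed by 0.01, with an interval of -0.11 to 0.13, while a dimmer SEC11C probe set rose by 0.31 (limma adjusted p = 0.0418 in the fit of every probe set).

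The remaining peptidase genes, both noncatalytic subunits, had probe sets that differed in direction. SPCS2 was at 10.57, 10.50 and 10.51 in the control and at 10.33, 10.37 and 10.27 in the knockdown arrays. These did not overlap, and SPCS2 fell by 0.20 (SE 0.06; limma adjusted p = 0.00629), but a second bright probe set changed by -0.01 and a dim one by 0.49. SPCS3 was at 9.64, 9.59 and 9.61 in the control and at 9.82, 9.77 and 9.77 in the knockdown arrays. It rose by 0.17 on that probe set (SE 0.07; limma adjusted p = 0.0464), while its other probe sets changed by -0.15 and -0.27. The SPCS3 call was lost without any array other than control array 1, with limma adjusted p from 0.0886 to 0.204.

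COPII was mixed: of 12 genes 5 rose, 2 fell and 5 did not pass, with a median change of 0.23. The coat proteins were on the higher side. SEC24D, a cargo-binding subunit of the inner coat, was at 7.43, 7.37 and 7.64 in the control and at 8.26, 8.37 and 8.10 in the knockdown arrays. It rose by 0.76 without overlap (SE 0.10; limma adjusted p = 3.69e-07), a 1.70-fold change. SEC23B, its partner and the activator of the SAR1 GTPase, was at 8.29, 8.15 and 8.51 in the control and at 8.96, 8.92 and 8.71 in the knockdown arrays. SEC23B rose by 0.55 (SE 0.10; limma adjusted p = 2.9e-05). SEC23A, the second SEC23 gene, was at 5.76, 5.75 and 6.12 in the control and at 6.50, 6.53 and 6.26 in the knockdown arrays, and rose by 0.55 as well (SE 0.12; limma adjusted p = 3.67e-04). Neither SEC23 gene had overlapping groups. The outer coat genes SEC31A and SEC13 rose by 0.38 and 0.32 (limma adjusted p = 8.62e-04 and 0.00277).

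The other SEC24 genes were higher in mean but did not pass. SEC24A changed by 0.22 (interval -0.01 to 0.46), SEC24B by 0.24 (0.01 to 0.46) and SEC24C by 0.22 (0.02 to 0.42), each with overlapping groups. Each passed when 1 array was left out: SEC24A without knockdown array 3 (limma adjusted p = 0.0222), SEC24B without control array 3 (0.0292) and SEC24C without control array 1 (0.00295). SEC16A, the scaffold of ER exit sites, changed by 0.01 (interval -0.20 to 0.22).

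The members on the lower side in COPII were the GTPases that start the coat and a fusion protein. SAR1B was at 7.84, 7.53 and 7.78 in the control and at 7.22, 7.35 and 7.06 in the knockdown arrays. It fell by 0.51 without overlap (SE 0.11; limma adjusted p = 2.69e-04) on its brightest probe set. A dimmer SAR1B probe set, however, rose by 1.01 (limma adjusted p = 6.31e-06 over all probe sets), and the 2 others above the filter changed by -0.32 and -0.20. SAR1A changed by -0.23 and missed the threshold (interval -0.42 to -0.03; limma adjusted p = 0.0511), while its second probe set fell by 0.43. SEC22B, a SNARE protein in these vesicles, was at 7.46, 7.41 and 7.65 in the control and at 7.11, 7.39 and 7.09 in the knockdown arrays. Its groups were adjacent, and it fell by 0.31 (SE 0.11; limma adjusted p = 0.0198). That call was lost without control array 3 (0.119) or without knockdown array 1 (0.103) or 3 (0.0837). Probe sets that SEC22B shares with pseudogene symbols were named for no gene.

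COPI held the largest changes. Of 9 genes 6 rose, 0 fell and 3 did not pass, with a median change of 0.37. ARF1, the GTPase that recruits the COPI coat to Golgi membranes, was at 6.64, 6.80 and 6.60 in the control and at 8.27, 8.36 and 8.45 in the knockdown arrays. The groups were far apart, and this probe set rose by 1.68 (SE 0.10; limma adjusted p = 2.89e-14), a 3.20-fold change. It is the only probe set the annotation gives to ARF1 alone. Of 3 more that it pairs with both ARF1 and the microRNA gene MIR3620, 2 were brighter, and they rose by 0.48, 0.53 and 0.56 (limma adjusted p = 6.12e-06, 8.83e-05 and 0.00349 over all probe sets). The size of the ARF1 change therefore differed by probe set, with the direction the same on all 4.

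ARF4, a related GTPase of the early Golgi, was at 8.66, 8.44 and 8.56 in the control and at 9.57, 9.74 and 9.61 in the knockdown arrays. It rose by 1.09 without overlap (SE 0.08; limma adjusted p = 5.46e-12), a 2.12-fold change, and its second probe set rose by 0.78. COPA, the outer coat subunit that binds retrieval signals, was at 8.85, 8.65 and 8.72 in the control and at 9.64, 9.56 and 9.43 in the knockdown arrays. COPA rose by 0.80 (SE 0.08; limma adjusted p = 2.8e-09), a 1.74-fold change, and by 0.96 on its second probe set; the mean over all its probe sets, dim ones included, rose by 0.45. COPG1, an inner coat subunit, was at 7.11, 7.06 and 7.14 in the control and at 7.61, 7.70 and 7.55 in the knockdown arrays, again without overlap. It rose by 0.52 (SE 0.10; limma adjusted p = 7.91e-05). COPB1 and ARCN1, further inner coat subunits, rose by 0.37 and 0.33 (limma adjusted p = 2.62e-04 and 0.004). COPB2 changed by 0.14 (interval -0.05 to 0.33), COPZ1 by 0.11 (-0.08 to 0.29) and COPE by -0.11 (-0.30 to 0.08), all with overlapping groups, though COPZ1 and COPE each had a dimmer probe set that rose, by 0.33 and 0.46.

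Of the 10 measured cargo receptors and tethers 6 rose, 1 fell and 3 did not pass, with a median change of 0.38. TMED9, a p24 family protein that cycles between ER and Golgi, was at 9.54, 9.37 and 9.33 in the control and at 10.02, 10.09 and 10.02 in the knockdown arrays. It rose by 0.63 without overlap (SE 0.07; limma adjusted p = 2.53e-08), and both its probe sets changed by 0.63. LMAN1, the lectin that carries coagulation factors and other glycoproteins out of the ER, was at 9.99, 9.94 and 9.87 in the control and at 10.52, 10.58 and 10.52 in the knockdown arrays. LMAN1 rose by 0.60 (SE 0.06; limma adjusted p = 3.29e-09). Its cofactor MCFD2 changed by 0.15 (interval -0.09 to 0.38) and did not pass.

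The p24 proteins TMED2 and TMED10 bind COPI as a pair. TMED2 was at 10.26, 10.27 and 10.31 in the control and at 10.81, 10.73 and 10.60 in the knockdown arrays, and rose by 0.43 (SE 0.06; limma adjusted p = 1.3e-06). TMED10 was at 8.83, 8.60 and 8.76 in the control and at 9.16, 9.25 and 9.05 in the knockdown arrays, and rose by 0.42 (SE 0.09; limma adjusted p = 1.58e-04). Neither had overlapping groups. TMED3 changed by 0.13 (interval -0.07 to 0.33) and did not pass, although its groups did not overlap. The KDEL receptors return escaped ER chaperones; KDELR1 rose by 0.34 (limma adjusted p = 3.44e-04) and KDELR3 by 0.45 (9.66e-04).

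GOLGB1, the long Golgi tether also called giantin, was the member of this step that fell. It was at 7.94, 7.62 and 7.75 in the control and at 7.52, 7.51 and 7.53 in the knockdown arrays. The groups did not overlap, and GOLGB1 fell by 0.25 (SE 0.10; limma adjusted p = 0.0428). That call was lost without any array other than control array 2, with limma adjusted p from 0.0740 to 0.171, and a dimmer GOLGB1 probe set rose by 0.39. LMAN2, a lectin related to LMAN1, changed by -0.11 (interval -0.32 to 0.11); averaged with a probe set below the filter it rose by 0.35 (limma adjusted p = 0.0180).

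**Figure D2:**
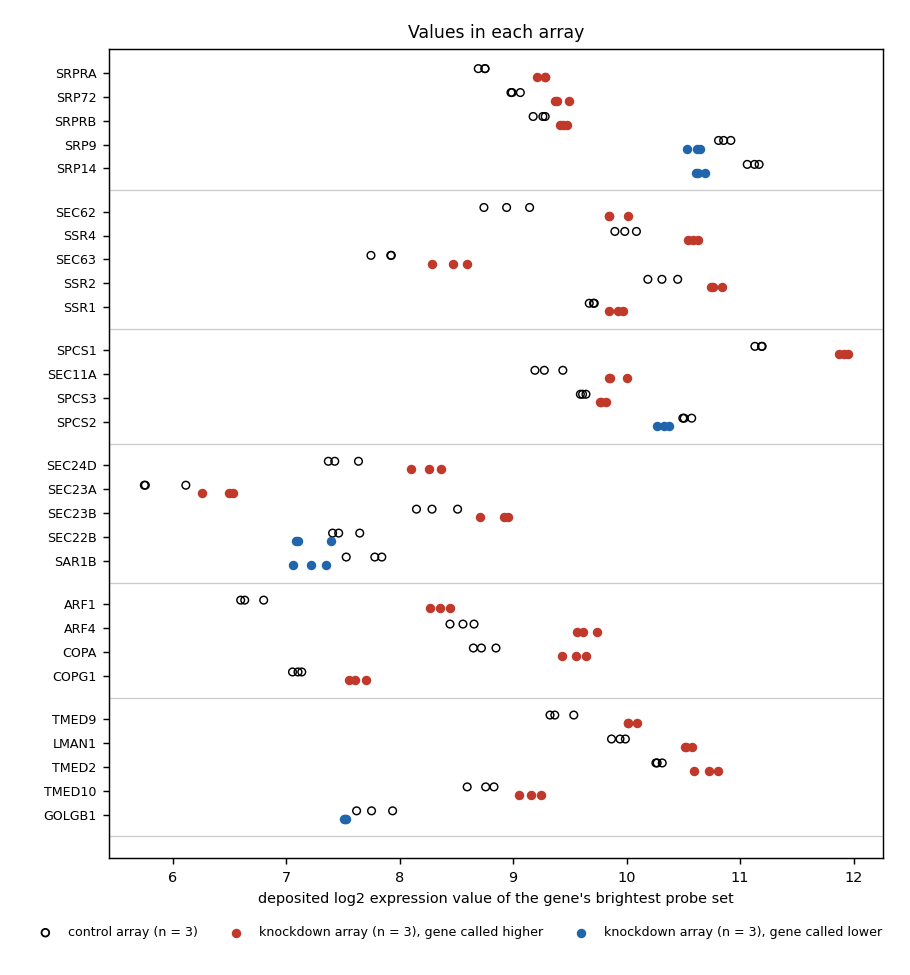
Deposited log2 value in each array (x axis) of the 28 members whose arrays are listed in the text; open circles are the 3 control arrays and filled circles the 3 knockdown arrays of a gene, coloured by call. ARF1 and SPCS1 show wide gaps between the groups, while for SEC22B the highest knockdown value (7.39) sits next to the lowest control value (7.41).

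Several genes were read by more than 1 probe set, which gave a second reading of the same RNA from other probes on the same 6 arrays. In a fit over all probe sets, 107 of the 125 member probe sets were above the filter, and 65 of these were called higher, 7 lower and 35 not called; over all 27307 probe sets above the filter 21.2% were called higher and 17.1% lower. Of the 33 members with several above the filter, 14 were called the same way on every one, and 25 had at least 1 called and none called the other way. Neither count was made over all genes, so it cannot be said whether they are high. The filter takes the mean of all 6 arrays, so a dim probe set can pass through 1 group alone. A SEC61B probe set (mean 5.19 in control, 6.71 in knockdown) and a KDELR3 probe set (5.30 and 5.91) passed through the knockdown arrays. Both genes are among the 14, so the filter itself favours such agreement. SEC23B rose on all 3 (0.55, 0.74 and 0.56), SEC24D on both (0.76 and 1.03), and SEC63 by 0.59, 1.32 and 0.61 on 3 of its 4. Probe sets were called in both directions for 4 members, SRPRB, SSR1, SPCS2 and SAR1B, beside 2.57% of the 5414 genes of the table with several probe sets above the filter. Of the 6 members that fell, SAR1B, SPCS2 and GOLGB1 thus had a probe set that rose, SEC22B had no second one above the filter under its symbol alone, and SRP9 and SRP14 had 1 each. Under the adjustment over all probe sets SPCS3, SEC22B and GOLGB1 no longer passed on the probe sets used above (limma adjusted p = 0.0626, 0.0547 and 0.0781).

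**Figure D3:**
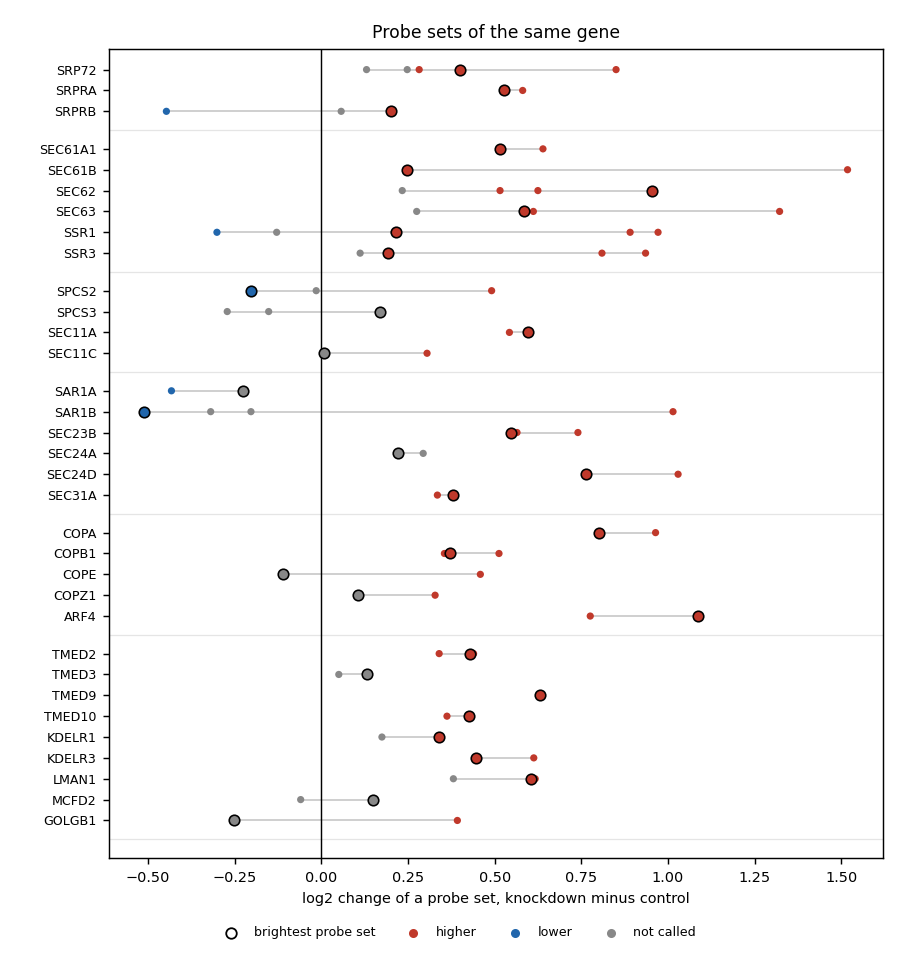
Change of every probe set above the filter (x axis: knockdown minus control, log2) for the 33 members with several; the outlined circle is the brightest, the one used for the gene, and colour gives the call in the fit over all probe sets. SAR1B spans the widest range that crosses 0, from -0.51 to 1.01, while both TMED9 probe sets lie at 0.63.

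Members that do the same or a closely related step were compared in pairs. For 9 pairs the log2 difference between the 2 genes was taken within each array and compared between groups by a two-sided exact permutation test; with 3 against 3 arrays the smallest p is 0.1, so no pair can pass 0.05, and adjustment over the 9 pairs makes it 0.15. SEC11C changed by 0.59 less than SEC11A, LMAN2 by 0.71 less than LMAN1, and SEC24D by 0.54 more than SEC24A, each with groups that did not overlap (exact permutation p = 0.1). ARF4 changed by 0.59 less than ARF1 and SEC63 by 0.37 less than SEC62 (exact permutation p = 0.1 each), and SAR1B by 0.28 less than SAR1A (exact permutation p = 0.1). KDELR3 differed from KDELR1 by 0.11 (exact permutation p = 0.2), while SEC23B minus SEC23A and SEC24C minus SEC24B were both -0.01 (exact permutation p = 0.8 each). The SAR1 and SEC62-SEC63 differences turned direction with another choice of probe set, and LMAN2 minus LMAN1 was -0.19 with the mean over probe sets. The ARF difference rests on the probe set of ARF1 alone: the 3 shared with MIR3620 rose by less (0.48, 0.53 and 0.56) than ARF4 (1.09).

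Other genes of the same pathway were read from lists of their known members. Beside these lists, 25.3% of all genes tested were called higher and 22.0% lower. Among the genes at or above the members' median level of 8.91, 37.7% were called higher and 41.0% lower. Of 23 tested paralogs and partners of the translocon, coats and receptors, 12 rose (52.2%) and 2 fell (8.7%), with a median change of 0.29. MIA2 and TFG, which act at ER exit sites, rose by 1.16 and 0.76, and TRAM1, a translocon neighbour, rose by 0.62 while its paralog TRAM2 fell by 0.64. Of 11 oligosaccharyltransferase genes, which attach N-glycans at the translocon, 6 rose (54.5%) and 2 fell (18.2%). Their median change was 0.20 and their median level 9.76. DDOST, OSTC and RPN2 rose by 0.66, 0.50 and 0.46 and RPN1 fell by 0.37. The 30 tested SNAREs, Rabs, ARF regulators and tethers were divided, with 11 higher (36.7%) and 6 lower (20%), and a median change of 0.18. These shares are not far from those of all genes. Among them TRAPPC6A rose 2.83-fold, ARFGAP3 and GOLGA2 rose by 1.04 and 0.75 on the log2 scale, and TRAPPC2L fell by 0.78. The separate route by which tail-anchored proteins enter the ER membrane, with 6 genes tested, had 2 higher and 2 lower (33.3% each, median 0.06). CAMLG and GET1 rose by 0.89 and 0.31, and GET3 and BAG6 fell by 0.54 and 0.36.

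The folding enzymes and the factors tied to secretory capacity had no member called lower. Of the 15 ER folding enzymes and chaperones 12 rose (80%) and 0 fell, with a median change of 0.62 and a median level of 9.65. Of all genes tested 25.3% were called higher and 22.0% lower, and of those at or above a level of 8.91, 37.7% and 41.0%. DNAJB9 rose by 2.41, HYOU1 by 1.31, HSPA5, the chaperone BiP, by 1.29 and P4HB by 0.80. Of 10 secretory regulators 8 rose (80%) and 0 fell, with a median change of 0.45. ERN1, the ER stress sensor IRE1, was at 8.08 ± 0.17 in the control and 9.97 ± 0.06 in the knockdown arrays (mean ± SD, n = 3 each) and rose by 1.88 (limma adjusted p = 7.77e-17). ATF4, a transcription factor of the stress response, rose by 1.72, and CREB3L2, a membrane-bound factor that acts on COPII genes, by 1.36. BHLHA15, a factor of secretory cells also called MIST1, rose by 0.91 and ATF6 by 0.53, while CREB3, CREB3L4 and CREB3L1 rose by 0.38, 0.38 and 0.33. XBP1 mRNA was at 10.87 ± 0.04 and 10.76 ± 0.02 (mean ± SD, n = 3 each), a change of -0.11 that did not pass (limma adjusted p = 0.0946), and ATF6B changed by -0.14 (limma adjusted p = 0.310). For both XBP1 and ATF6B, every knockdown array was nonetheless below every control array. Spliced and unspliced XBP1 mRNA were not told apart here, and protein levels were not measured.

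**Figure D4:**
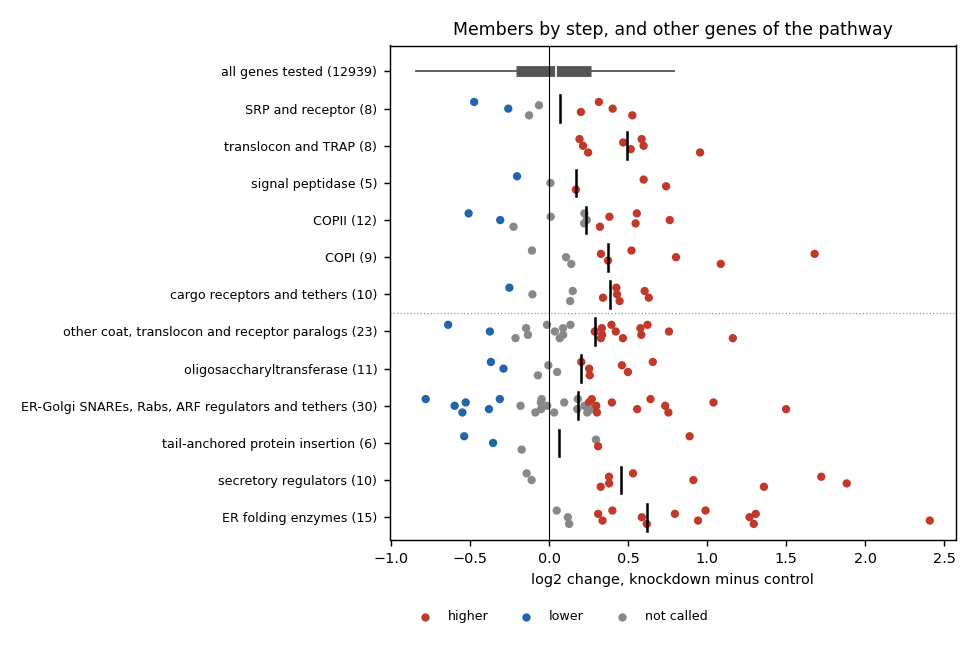
Change of each tested gene (x axis: knockdown minus control, log2) by step and, below the dotted line, in the other lists; short black lines are medians, colour gives the call, and the top bar gives the 5th to 95th (thin) and 25th to 75th (thick) percentiles of all 12939 genes tested. Medians run from 0.06 for tail-anchored protein insertion and 0.07 for SRP and its receptor to 0.49 for the translocon and TRAP step and 0.62 for the ER folding enzymes.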

How the data were processed

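Expression was measured on 6 Affymetrix arrays, 3 per group, grouped by sample title. The authors deposited log2 values, 1 per probe set and array; MAS5 and PLIER appear in the submitters' processing notes with no role stated, and the scaling between arrays was not given in the sources used here. A floor at 4 fits log2(signal + 16), which understates changes of dim probe sets; this form was read from the values. Array medians were 5.44 to 5.54. Label text on embryos contradicts the cell line and was not used.

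From these values, 62 control probe sets were left out, and a gene was read by its brightest probe set with 1 symbol in the platform annotation and tested if its mean reached 5.49, the median of all probe set means. Groups were compared with limma 3.58.1 (R 4.3.3; lmFit, eBayes with an intensity trend, two-sided, Benjamini-Hochberg). Precision is limited by having 3 arrays a group. The code was tested on simulated data. Promoters are from RefSeq; genes absent from that table are SRPRA, SPCS1, SEC24D, ARF4, TMED9, KDELR2 and USO1. Members and lists were chosen with earlier results of these data known, and the lists support nothing independently. Array values are given for the 4 members of each step with the smallest adjusted p, for those called against most of their step, and for those with probe sets called in both directions; other lists name up to 4 called genes, the regulators all. Alternatives were other scalings, filters, probe set rules, moderation, a 1.2-fold test, a replicate block and leaving out each array.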

Additional observations from a re-analysis of the deposited data

How the results depend on the processing

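The count of members called higher (32) was within 1.5 times in 17 of 18 alternatives and that of members called lower (6) in 16 of 18; members called higher ran from 28 to 34 outside the 1.2-fold test. That test gave 1366 genes higher and 1459 lower, 17 members higher and 1 lower; by step it gave SRP 1 higher and 1 lower, translocon 5 higher, COPII 2 higher and 0 lower, cargo receptors 3 higher and 0 lower, and peptidase 0 lower. Members called lower came to 3 with the mean over probe sets. Peptidase genes called lower came to 0 with that mean and without the intensity trend. COPII genes called lower came to 1 with the mean and without moderation, and to 0 with probe sets free of cross-hybridization marks. GOLGB1, the one cargo receptor or tether called lower, was lost (count 0) under the replicate block, no filter, the mean over probe sets, unmarked probe sets, no trend and no moderation. Leaving out 1 array gave 1 to 2 COPII genes and 0 to 1 tethers lower. Member probe sets called lower came to 11 with quantile normalization and 12 with median centring or cyclic loess; centring moved the median of all genes from 0.05 to -0.01 and gave 28 members higher and 7 lower.

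Directions turned for 5 called members when probe sets were averaged or unmarked ones preferred: SRPRB -0.063 and -0.45, SPCS2 0.091 and 0.49, SPCS3 -0.085 and -0.27, SAR1B 0.065 and 1.01, GOLGB1 0.070 and 0.39. Among members not called, averaging also turned COPE to 0.17 and LMAN2 to 0.35, and SEC11C, SEC16A and SRP54, with changes near 0, turned under centring, loess or a left-out array. Averaging moved called values by over 1.5 times for SEC62 (0.49), SEC61B (0.88), SSR3 (0.51), COPA (0.45), KDELR3 (0.26) and SEC22B (-0.071), and preferring unmarked sets did so for SSR1 (0.97), SEC62 (0.52) and SSR3 (0.11, not called). Of the pair differences, LMAN2 minus LMAN1 became -0.19 with averaging, SAR1B minus SAR1A became 0.41 and 1.24 and SEC63 minus SEC62 0.10 and 0.10. SEC23B minus SEC23A became 0.082 (quantile), 0.062 (loess), 0.15 (mean), 0.010 (unmarked) and 0.073 (16 added), and -0.030 to 0.036 with 1 array left out. SEC24C minus SEC24B became 0.045 (quantile), 0.026 (loess) and 0.0040 (16 added), and -0.14 to 0.14 with 1 array left out. The cause was not tested, beyond the choice of probe set itself.

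Replicate numbers did not pair the arrays (correlations of same-numbered deviations -0.09, -0.26 and -0.30); with the replicate block 30 members were higher and 5 lower, and SRPRB, SPCS3 and GOLGB1 lost their calls. Dim probe sets near the floor limit what can be seen of small changes.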
